A study of Rattus norvegicus with 6 samples.

Results

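Sgo2, Fam83d and Ccdc150 were followed on arrays of BMSCs, the mesenchymal stem cells of bone marrow, from rats, kept under normoxia or hypoxia, through 3 probes of the 38804 on each array. The 3 probes were chosen by their measured difference between hypoxia and normoxia, so their levels and differences are described here without a test. All 3 were among the 30451 probes that passed the detection filter (above background on at least 3 of the 6 arrays), and all 3 were detected on each of the 6 arrays. The probes of Sgo2 (ASRN6AP1B106458451V3) and Fam83d (ASRN6AP1B100070478V3) belong to the mRNA series of the array, told by the start of the probe name. The probe of Ccdc150 (ASRNV20034166V3) belongs to the LncRNA series, and the study lists it as a LncRNA under that symbol, so its values are given for a transcript listed as Ccdc150, without saying whether that is the Ccdc150 mRNA.

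The cells came from the bone marrow of Sprague-Dawley rats. Both groups were grown in L-DMEM with 10% fetal bovine serum and antibiotics at 5% CO2. The normoxia group (n = 3) was kept at 20% oxygen and the hypoxia group (n = 3) at 0% oxygen for 48 h, with no other treatment named for either group, to ask which transcripts change when BMSCs meet a hypoxic environment. Total RNA of each sample was labelled with Cy3 and hybridized to 1 single-colour array, on which the brightness of a spot rises with the amount of transcript bound. The labels call the samples biological replicates but do not say whether they came from separate animals, and the methods call the rats young. No probe could be named for any of the 11 BMSC marker genes looked for (Thy1, Nt5e, Eng and others), so the labelled cell type was not checked against its markers.

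A cell that divides must copy its chromosomes, hold the copies together, line them up on the spindle and then part them. Shugoshin 2, the product of Sgo2, protects the cohesin that holds sister chromatids at the centromere, the point where the spindle attaches. FAM83D, the product of Fam83d, sits on the spindle microtubules, where it binds the kinesin KIF22 and the microtubule protein HMMR and brings casein kinase 1 alpha to the spindle, and it helps chromosomes to gather at the spindle equator. CCDC150 is a coiled-coil protein. Many genes of mitosis are repressed together when cells stop dividing, through a complex called DREAM that binds a promoter element named the cell cycle genes homology region (CHR), often with CCAAT boxes nearby that bind NF-Y.

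The promoters of Fam83d and Ccdc150 are shown because the probes listed under these symbols were lower under hypoxia and the sequences can be read for the CHR, CCAAT boxes and the core of the hypoxia response element, to which hypoxia-inducible factors bind. Each runs 5′ to 3′ on the strand of the gene, from 250 bases before to 50 bases after the annotated start, taken from RefSeq (GRCr8), and the capitals mark the motif matches. The window of Fam83d is chr3:167841542-167841841 (+ strand) and that of Ccdc150 is chr9:63287752-63288051 (+ strand). Whether the transcript bound by the LncRNA-series probe listed as Ccdc150 begins at this annotated start is not known, so its window describes the gene of that symbol and not the probe. Sgo2 is named here without a sequence.
Fam83d promoter: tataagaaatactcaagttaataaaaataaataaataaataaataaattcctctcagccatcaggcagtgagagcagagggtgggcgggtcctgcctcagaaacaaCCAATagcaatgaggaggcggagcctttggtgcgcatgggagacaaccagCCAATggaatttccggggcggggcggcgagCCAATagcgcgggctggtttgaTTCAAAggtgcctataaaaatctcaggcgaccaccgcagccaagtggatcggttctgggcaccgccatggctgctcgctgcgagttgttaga
Ccdc150 promoter: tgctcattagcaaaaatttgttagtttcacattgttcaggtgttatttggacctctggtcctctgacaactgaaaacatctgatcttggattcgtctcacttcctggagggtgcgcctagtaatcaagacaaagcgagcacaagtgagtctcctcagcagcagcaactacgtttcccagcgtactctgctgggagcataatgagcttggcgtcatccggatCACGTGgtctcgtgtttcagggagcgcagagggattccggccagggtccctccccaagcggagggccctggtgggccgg
Matches were sought on both strands to the letters TTTGAA or TTCGAA for the CHR, CCAAT for the CCAAT box, ACGTG or GCGTG for the hypoxia response element core, and TTTCCCGC, TTTCGCGC, TTTGCCGC or TTTGGCGC for the E2F site.

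The Fam83d window held 1 CHR match, on the minus strand at bases -42 to -37 from the start site (base -1 is the one just before it; read as TTCAAA on the printed strand), and 3 CCAAT boxes upstream of it, at bases -144 to -140, -94 to -90 and -64 to -60. None of these matches overlapped another. It held none of the letters of the hypoxia response element core or of the E2F site. The Ccdc150 window held the hypoxia response element core on both strands, at bases -29 to -25 (minus) and -28 to -24 (plus), which overlap because the letters CACGTG read the same on each strand, and none of the letters of the CHR, the CCAAT box or the E2F site. The guanine and cytosine content was 51% for the Fam83d window and 53.3% for the Ccdc150 window. A match is a stretch of letters and not a binding site, and a missing match says only that these letters are not in the window.

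**Figure D1:**
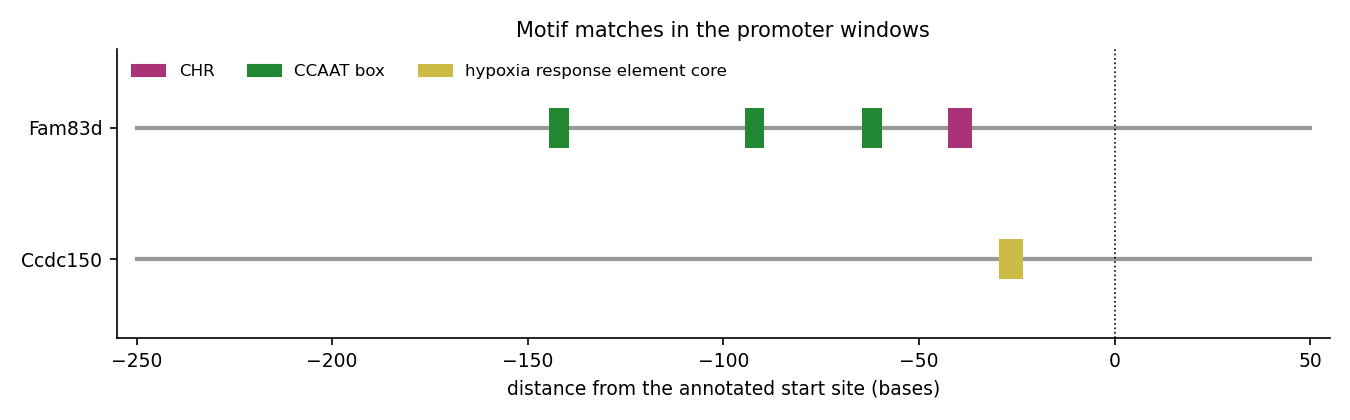
Motif matches in the promoter windows of Fam83d and Ccdc150, by distance in bases from the annotated start site (dotted line), with the CHR in purple, CCAAT boxes in green and the hypoxia response element core in yellow. Fam83d shows 3 CCAAT boxes and 1 CHR before its start site, and Ccdc150 shows the overlapping hypoxia response element cores.

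Among all 33469 promoters of the same length, 19.7% held a CHR match, 37.5% a CCAAT box, 41.6% a hypoxia response element core and 2.14% an E2F site. The pattern of Fam83d, a CHR match together with at least 3 CCAAT boxes and put together after its window was read, was found in 244 of them (0.729%). A list of 71 mitotic genes, Fam83d among them, had 61 promoters in the same table, and 14 of these (22.95%) held that pattern. Besides Fam83d they included Hmmr, whose product binds FAM83D, and Cdk1, Ccnb2, Mki67 and Top2a, all genes of cell division. A CHR match of any kind was present in 41 of the 61 (67.2%), and the promoter of Kif22, the kinesin partner of FAM83D, held 1 CHR match and 2 CCAAT boxes. Of a list of 24 DNA replication genes, 19 had promoters in the table, and 1 of these (5.26%) held the pattern of Fam83d. At least 3 CCAAT boxes were found in 21.1% of the replication promoters and 26.2% of the mitotic ones, so that part of the pattern is not particular to mitotic genes. Sgo1, the paralogue of Sgo2, held 1 CHR match, 2 CCAAT boxes and 7 hypoxia response element cores. The hypoxia response element core of Ccdc150 is common: 55.7% of the mitotic promoters and 60.0% of those of a list of HIF targets held at least 1.

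In the RefSeq annotation, Sgo2 and Ccdc150 both lie on chromosome 9, with 23 protein-coding genes between them, and Fam83d lies on chromosome 3. Sgo2 has 3 transcripts, all coding, and overlaps Kctd18 and a small nuclear RNA gene. Fam83d has 5 transcripts, all coding, and overlaps no other gene. Ccdc150 has 30 transcripts, of which 16 are coding and 14 are noncoding, and it overlaps Rpl31l12, Gtf3c3 and a LncRNA gene (LOC134480576). Which of these transcripts the Ccdc150 probe binds is not given in the sources used here.

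Facts of the arrays bear on every value below. The median spot intensity ranged from 23.9 to 36.9 scanner units on the normoxia arrays and was 25.0, 54.2 and 46.1 on hypoxia arrays 1 to 3, and the median local background was 14 to 16 on the normoxia arrays and hypoxia array 1 and 22.5 and 22 on hypoxia arrays 2 and 3. The share of probes detected was 74.4% to 77.9% on the first 4 of these arrays and 84.7% and 85.8% on hypoxia arrays 2 and 3. The normoxia arrays and hypoxia array 1 shared scan 1, and hypoxia arrays 2 and 3 were read in scan 2. The list in which the study gives the symbols Sgo2 and Fam83d heads its columns as an empty vector and an overexpression group, but its columns hold the values of the deposited hypoxia and normoxia arrays one by one. The groups here follow the sample labels. Ldha and Kdm4b, the only genes of a list of 20 HIF targets that could be named, are known to be raised by hypoxia-inducible factors, and both were lower on the arrays labelled hypoxia, with log2 differences of -1.24 and -1.97. The LncRNA AABR07053481.1, which the study followed further, was also lower on the arrays so labelled, with a difference of -4.11. It and Kdm4b were named through lists picked for change on these same arrays, so their values are no check of the labels.

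For Sgo2, the normalized signal (log2) was 6.79, 6.43 and 6.72 on normoxia arrays 1 to 3. Under hypoxia it was 5.16, 4.33 and 4.38 on arrays 1 to 3. The hypoxia arrays were all lower than any normoxia array, and hypoxia array 1 was the highest of the hypoxia arrays. The probes were chosen on this contrast, so such a separation, here and for the probes below, is not read as a result. The share of all probes that separate in this way was not counted. The normoxia mean was 6.65 ± 0.19 (SD, n = 3) and the hypoxia mean 4.63 ± 0.47 (SD, n = 3), a log2 difference of -2.02 with a standard error of 0.21 from limma, or a 4.06-fold lower signal. The size of that fold is not firm, since the difference was -0.97 with the normexp background correction and -1.48 with the scan as a block. The lowest normoxia array and the highest hypoxia array were 1.26 apart on the log2 scale. In bulk RNA, fewer dividing cells and less of the transcript in each cell cannot be told apart, and this holds for Fam83d and Ccdc150 too.

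Fam83d gave a normalized signal (log2) of 11.11, 10.98 and 11.12 under normoxia. The hypoxia arrays gave 9.58, 9.38 and 9.18. The groups did not overlap, and the normoxia arrays lay close together. The means were 11.07 ± 0.078 (SD, n = 3) and 9.38 ± 0.20 (SD, n = 3), which differ by -1.69 on the log2 scale (standard error 0.18), or 3.22-fold. The gap between the nearest arrays of the 2 groups was 1.40.

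The probe listed as Ccdc150 had a normalized signal (log2) of 5.46, 5.22 and 5.54 under normoxia. Its values were 2.89, 1.79 and 2.12 under hypoxia. Every hypoxia array was below every normoxia array in these values too, as the choice of the probe made likely, with hypoxia array 1 highest of its group. The mean went from 5.41 ± 0.16 (SD, n = 3) to 2.27 ± 0.56 (SD, n = 3), a log2 difference of -3.14 (standard error 0.24) and a fold of 8.80. That fold is not firm, since the spot median under hypoxia was 4, 4 and 1 units above the local background, and the difference was -0.74 with the normexp background correction. The nearest arrays of the groups were 2.33 apart.

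**Figure D2:**
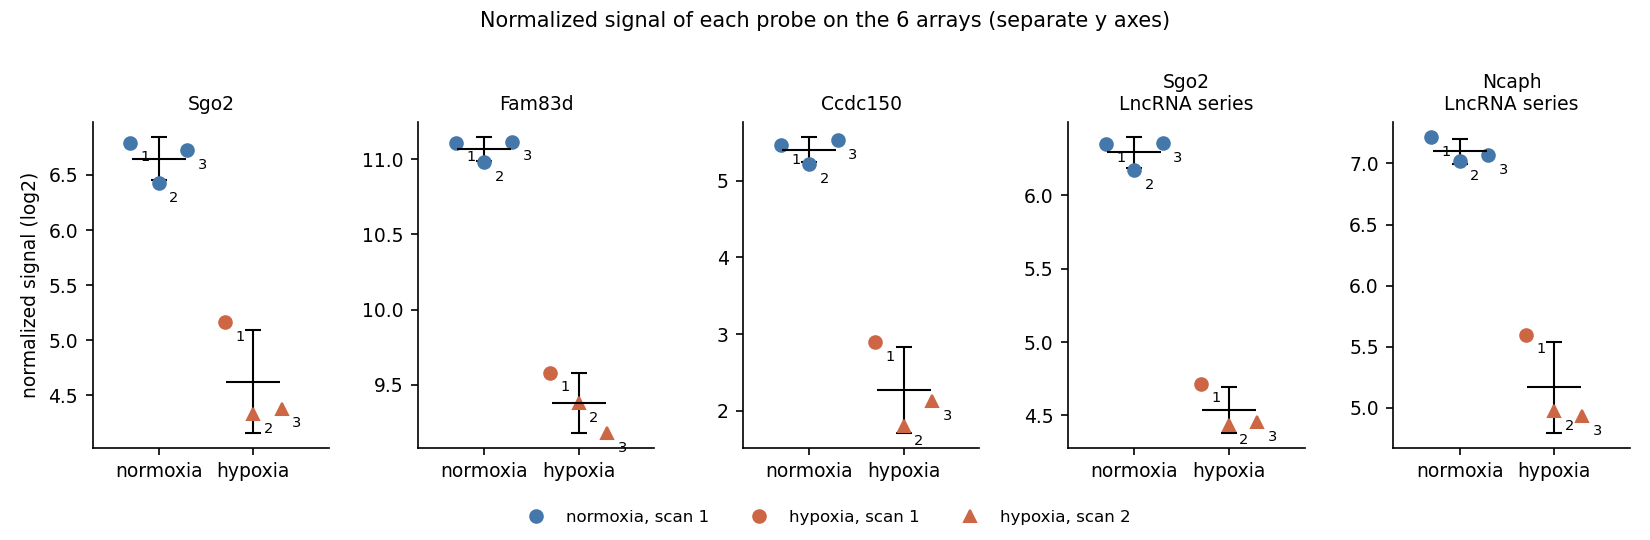
Normalized signal (log2) of the 3 probes, and of the LncRNA-series probes listed under Sgo2 and Ncaph, on each array (numbers are replicate numbers, circles scan 1, triangles scan 2), with the mean and SD of each group (n = 3) in black and a separate y axis per panel. In each panel the hypoxia arrays lie below the normoxia arrays, and hypoxia array 1, which shares its scan with the normoxia arrays, is the highest of the hypoxia arrays. All of these probes were picked for this difference.

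These normalized values rest on spots of very different brightness, each probe having 1 spot per array. The spot of Fam83d was bright on all arrays. After background subtraction its intensity was 2972, 2218 and 1898 scanner units for normoxia, then 622, 771 and 556 for hypoxia, against a local background between 12.5 and 24. The spot of Sgo2 was dimmer, with 129, 83.0 and 78.8 under normoxia and 26.1, 32.9 and 29.6 under hypoxia. Around that spot the local background came to 17, 14 and 14 for normoxia, then to 15, 22 and 25 for hypoxia. Its background-subtracted intensity under hypoxia was thus 1.74, 1.495 and 1.18 times the local background, with raw spot medians of 40.5, 54 and 46.

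The spot listed as Ccdc150 was the dim case. Its background-subtracted intensity was 48.2, 34.1 and 32.8 for normoxia, then 4.98, 6.88 and 7.92 for hypoxia. Under hypoxia this subtracted intensity was 0.332, 0.328 and 0.344 of the local background on arrays 1 to 3. The raw spot median still exceeded that background there, by 4, 4 and 1 units. Under normoxia the raw spot median exceeded the local background by 56.5, 33 and 35 units. The scanner software still marked the spot as well above background on all 6 arrays, so no bound was set, but the size of its fold depends on how background is subtracted. In the deposited log2 table its values under hypoxia were 2.45, 2.47 and 2.56, the first being the lowest value which that array holds, and its difference was -2.92. Hypoxia array 1 was thus the lowest of its group in that table and the highest in the values computed here, so the order of the hypoxia arrays is not settled for this probe.

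**Figure D3:**
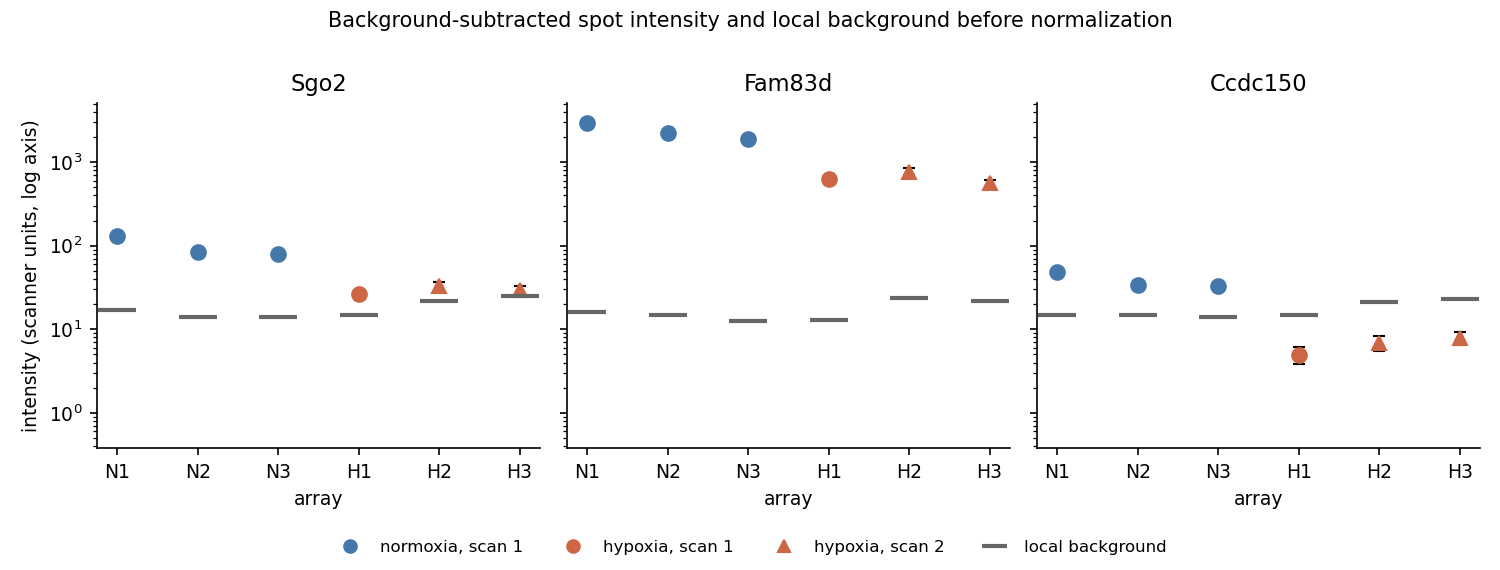
Background-subtracted spot intensity (scanner units, log axis; bars are the scanner software's error) of the 3 probes on normoxia arrays N1 to N3 and hypoxia arrays H1 to H3, before normalization, with the local background as grey dashes. The subtracted signal of Fam83d stays far larger than its background, that of Sgo2 comes down to 1.18 to 1.74 times the background under hypoxia, and that of Ccdc150 is smaller than the background under hypoxia.

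Probes spotted 10 times on each array showed how much the reading of 1 spot scatters. At the brightness of Fam83d, the median SD between such spots was 0.089 (log2) under normoxia and 0.097 under hypoxia, and at that of Sgo2 it was 0.081 and 0.127. At the brightness of the Ccdc150 probe it was 0.093 under normoxia and 0.273 under hypoxia, with a highest value of 0.789. This scatter is that of spots within an array and leaves out the spread between samples. For the Ccdc150 probe its highest value was above the SD of 0.56 between the 3 hypoxia arrays, and its median of 0.273 was below that SD.

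In the quantile-normalized values, hypoxia array 1 lay above the mean of hypoxia arrays 2 and 3 by 0.81 for Sgo2, 0.30 for Fam83d and 0.93 for the Ccdc150 probe (log2), where the order of the arrays turned with the processing. Set against the normoxia mean, hypoxia array 1 alone, which was read in the same scan, was lower by a log2 difference of -1.48 for Sgo2, -1.49 for Fam83d and -2.52 for Ccdc150. Hypoxia arrays 2 and 3, read in the other scan, gave -2.29, -1.79 and -3.45. Every probe called lower under hypoxia can be set beside this: over all 826 of them, hypoxia array 1 lay a median of 0.50 above the other hypoxia arrays, and it was the highest of the hypoxia arrays in 86.6%. Within scan 1 the comparison holds 3 normoxia arrays and 1 hypoxia array, and scan and sample cannot be told apart for the difference between hypoxia arrays.

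Across the whole array, 826 of 30451 probes (2.71%) were lower and 281 (0.923%) were higher under hypoxia at a Benjamini-Hochberg adjusted p under 0.05 in limma and a change over 2-fold. Without hypoxia array 1 the counts were 2683 lower and 2551 higher, and without both arrays numbered 1 they were 2741 and 2669. Once hypoxia array 1 is left out, group and scan coincide, so these counts cannot tell hypoxia from scan. Without any 1 normoxia array 500 to 519 were lower. Higher probes made up 25.4% of the calls, but 57.5% with 75th-percentile scaling. All 3 probes were among the lower ones, as the way they were chosen made likely, and nothing is read from that count. The median difference of all probes tested was -0.0022 on the log2 scale, and the 5th percentile was -1.001. A lower difference than that of Sgo2 was seen for 213 probes (0.699%), than that of Fam83d for 380 (1.25%) and than that of the Ccdc150 probe for 40 (0.131%). The place of the Ccdc150 probe rests on hypoxia signals close to background and on how background is subtracted, so its rank is not firm. Within the mRNA series of 24081 probes, 193 lay below Sgo2 and 338 below Fam83d.

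**Figure D4:**
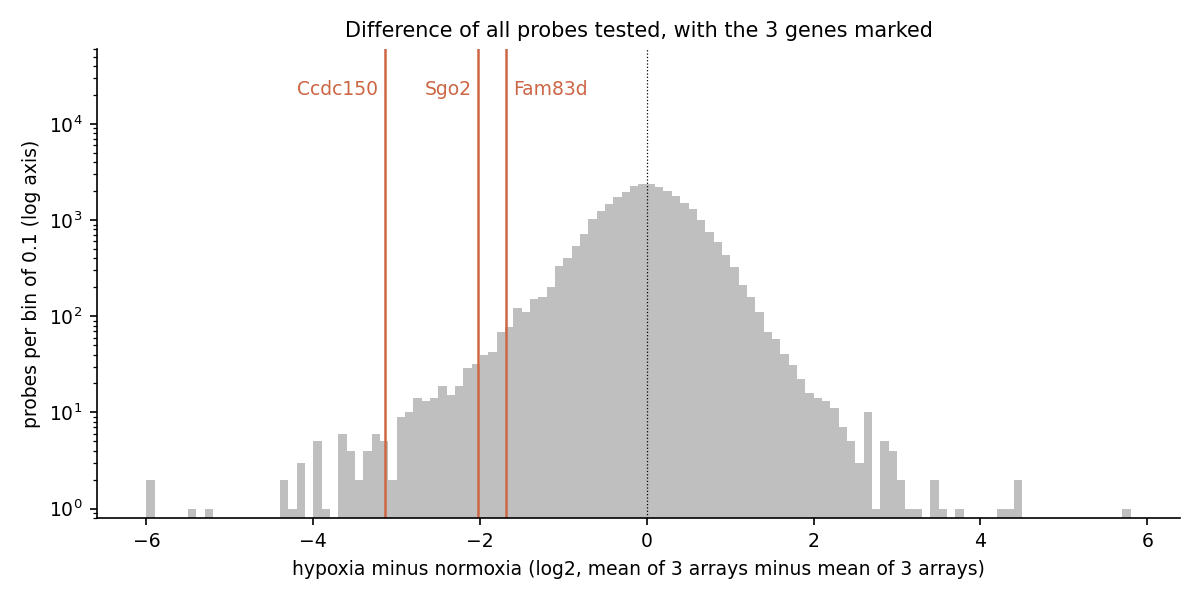
Difference between hypoxia and normoxia (log2, means of 3 arrays) of all 30451 probes tested, in bins of 0.1 with the number of probes on a log axis, and the 3 genes as lines. The lines stand at -1.69 for Fam83d, -2.02 for Sgo2 and -3.14 for Ccdc150, in the left tail.

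The size of each difference moved with the processing, and the order of Sgo2 and Fam83d turned. With 75th-percentile scaling the median of all probes shifted to 0.16, and the differences were -1.70 for Sgo2, -1.87 for Fam83d and -2.56 for Ccdc150, or -1.87, -2.03 and -2.73 relative to that median. Sgo2 thus showed the larger fall of the first 2 genes under quantile normalization and Fam83d under percentile scaling. Under that scaling hypoxia array 1 remained the highest hypoxia array for Sgo2 and Fam83d, while for the Ccdc150 probe it was hypoxia array 3, with 2.93 against 2.68 and 2.44. A background correction by the normexp method with an offset of 50 units, which compresses dim probes by construction, gave -0.97 for Sgo2 and -0.74 for Ccdc150, while the bright Fam83d probe gave -1.62. The difference was below 0 for all 3 genes under each of the 13 alternatives for which it was computed. The scan and replicate block together was used for counts only.

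**Figure D5:**
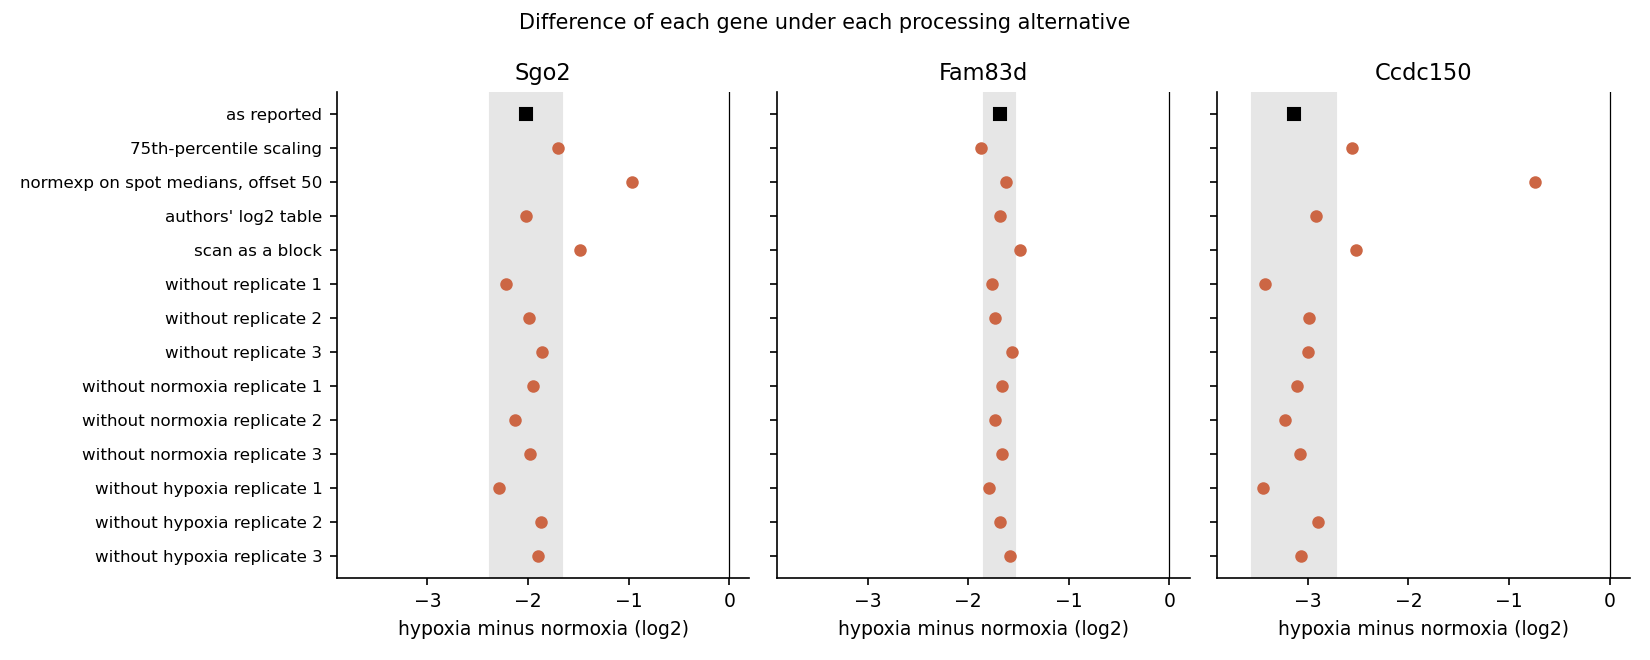
Difference between hypoxia and normoxia (log2) of the 3 genes as reported (black square) and under each processing alternative (circles), with a grey band of 1 pooled SD of the groups on either side of the reported value. The normexp correction moves Ccdc150 to -0.74 and Sgo2 to -0.97 but Fam83d only to -1.62, and no circle crosses 0.

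The study lists further probes of mitotic genes, both in the LncRNA series and both picked for their change on these arrays, so they are no independent evidence of direction. A second probe is listed under Sgo2 (ASRN6LNC1A100284128V3). It gave 6.35, 6.17 and 6.35 (log2) under normoxia and 4.72, 4.44 and 4.46 under hypoxia, without overlap, a difference of -1.76 (standard error 0.17) or 3.38-fold, which became -0.72 with normexp. Its difference was smaller in size than that of the first Sgo2 probe by less than the SD of that probe's hypoxia arrays. Hypoxia array 1 was the highest hypoxia array in these values but the lowest with 75th-percentile scaling, at 4.59 against 4.79 and 4.89. A probe listed under Ncaph (ASRNV20031955V3), a gene whose protein is a subunit of the condensin complex that compacts chromosomes in mitosis, gave 7.22, 7.02 and 7.06 under normoxia and 5.60, 4.97 and 4.93 under hypoxia. The groups were apart there too, with a difference of -1.93 (standard error 0.19) or 3.82-fold, which became -0.99 with normexp. The promoter of Ncaph held no CHR match and no CCAAT box.

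Of the 71 genes of the mitotic list, 3 symbols could be given a probe (Sgo2, Fam83d and Ncaph, with 4 probes). The Ncaph probe and the second Sgo2 probe are of the LncRNA series and are not shown to measure the mRNA of those genes. The names all came from the lists of the study, and 0 from an accession in the array files. All 4 probes passed the threshold downward (2.71% of all tested probes did). Those lists were picked for change on these arrays, so this count was largely set in advance and nothing about mitotic genes is read from it. The count was 1 with normexp, 1 with no detection filter, 0 in limma with the scan and replicate block together and 0 by the methods' paired t-test after adjustment. The spindle checkpoint genes Bub1 and Ttk, the kinases Plk1 and Aurkb, the cyclin Ccnb1 and the partners Kif22 and Hmmr could not be named on these arrays, and neither could any of 24 DNA replication genes or 14 genes that brake the cell cycle. The 27 tested probes that carry an accession of a known gene had a median difference of -0.43, with 2 called lower and 1 higher. Among them was Ldha, a glycolytic enzyme gene and a known target of hypoxia-inducible factors, whose normoxia mean was 12.104 ± 0.066 (SD, n = 3) and whose hypoxia mean was 10.86 ± 0.15 (SD, n = 3), a difference of -1.24 (limma adjusted p = 0.0287). Of 11 macrophage markers, C1qa could be named, through the study's list only. Its signal was 7.80 to 7.91 under hypoxia against 9.57 to 10.01 under normoxia, a difference of -1.99, and its part in the values above was not tested. None of 4 endothelial markers could be named.

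The 3 genes followed each other closely over the 6 arrays, each having been picked for a gap between the same 2 groups. Pearson's r of the normalized signal was 0.985 between Sgo2 and Fam83d, 0.995 between Sgo2 and Ccdc150 and 0.989 between Fam83d and Ccdc150 (6 arrays each), and it was 0.987 between both probes listed under Sgo2. Such values were not rare: 370 tested probes (1.22%) reached an r of 0.99 with Sgo2, 347 (1.14%) with Fam83d and 456 (1.498%) with Ccdc150. In the opposite direction 25, 48 and 41 probes reached -0.99.

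Among the 87 other probes that could be named, those most like Sgo2 in this measure were the LncRNA LOC102556240 (r = 0.997), the Ncaph probe (0.996) and the probe listed under Tmem235 (0.994), with differences of -1.84, -1.93 and -2.06. For Tmem235 the deposited normalized value departed from that of its spot by up to 2.40 (log2), so its place is uncertain. Fam83d was most like Celf3 (0.998), which encodes an RNA-binding protein, the LncRNA AABR07053481.1 (0.997) and the second Sgo2 probe (0.997). The differences of these were -2.71, -4.11 and -1.76. The Ccdc150 probe was most like LOC102552118 (0.999), Gpr34 (0.999), which encodes a receptor, and the receptor gene Notch1 (0.998), with differences of -1.67, -2.24 and -2.87. Most of the probes that could be named come from the lists of the study, which were picked for change on these arrays, so a likeness to the members is no independent evidence. With 6 arrays and ranks in place of values, 3 named probes tied at a Spearman's rho of 1 with Sgo2, 4 with Fam83d and 2 with Ccdc150.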

How the data were processed

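RNA of 3 normoxia and 3 hypoxia BMSC samples was measured on 1 Agilent array each. The authors deposited scanner output of Feature Extraction 11.0.1.1 with background-subtracted intensity values not normalized between arrays, spot medians, local background and flags (other values, per the file headers). They also deposited a log2 table, quantile-normalized in GeneSpring according to the methods, which was used for naming probes and as an alternative; its values correlated with those computed here at r of 0.999 or more on each array.

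Control and outlier spots were left out, log2 intensities averaged over spots and quantile-normalized over 38733 probes (71 others lacked a value on an array). The 30451 probes detected on at least 3 of 6 arrays (flags on at least 0.5 of their spots) entered limma 3.58.1 (R 4.3.3), with the replicate number as a block since the methods name a paired test. A probe was called where its p, adjusted after Benjamini and Hochberg, was under 0.05 and its change over 2-fold. The fits were tested on simulated data. Precision is limited by having 3 arrays in each group, and p-values measure only the spread between these samples.

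The array files name few genes: 30 of 48 probes with an accession were named through RefSeq GRCr8. The symbols of the 3 genes came from the study's source lists, whose 33 LncRNA and 30 mRNA entries each matched the 6 values of 1 probe of the deposited table to within 4.7e-05. Genes named are the 3 members, the other probes listed under Sgo2 and Ncaph, genes of the lists (mitosis, replication, cell cycle brakes, HIF targets, BMSC, macrophage and endothelial markers) that an accession names, and the 3 nameable probes with the highest Pearson correlation to each member. Promoter examples, C1qa and unnamed mitotic genes were picked for their role. Members and lists were chosen with earlier results of these data known. Of 20 HIF targets 1 was named by accession, Ldha, and 1 by the study's list, Kdm4b.

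Alternatives were 75th-percentile scaling, normexp on spot medians, the deposited log2 table, the scan as a block, other detection filters, no replicate block, leaving out replicates or arrays, and the methods' paired t-test.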

Additional observations from a re-analysis of the deposited data

How the results depend on the processing

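The differences of Sgo2, Fam83d and Ccdc150 kept their direction under all 13 alternatives for which they were computed. Beyond 1 SD of the groups they moved to -1.48, -1.49 and -2.52 with the scan as a block, which leaves only hypoxia array 1 to compare, to -0.97 (Sgo2) and -0.74 (Ccdc150) with normexp, and to -1.87 (Fam83d) and -2.56 (Ccdc150) with 75th-percentile scaling. Leaving out replicates or arrays gave -2.29 to -1.86 for Sgo2, -1.79 to -1.56 for Fam83d and -3.45 to -2.90 for Ccdc150. The largest falls of these came without hypoxia array 1, where group and scan coincide. The other alternatives stayed within 1 SD.

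Counts over all probes moved more. Against 281 higher and 826 lower probes, 75th-percentile scaling gave 1243 higher, normexp 171 higher and 408 lower, the scan as a block 633 higher, and no detection filter 57 higher and 122 lower. Leaving out replicates or arrays gave 202 to 2669 higher and 500 to 2741 lower. Without hypoxia array 1 it was 2551 and 2683, and without both arrays numbered 1 it was 2669 and 2741. In both of these settings group and scan coincide, so hypoxia and scan cannot be told apart. Leaving out any 1 normoxia array gave 500 to 519 lower. Same-numbered arrays did not deviate together (r of -0.193, -0.064 and -0.089), so these data give no sign that the numbers pair the samples, although the reported counts come from a fit blocked on them, after the paired test of the methods. With no replicate block limma called 386 higher and 1150 lower. With the scan and replicate block together limma had 1 residual degree of freedom and called 0 higher and 0 lower (807 and 883 at an unadjusted p under 0.05). The methods' paired t-test called 1 higher and 0 lower after adjustment (327 and 924 unadjusted). Of the 4 mitotic probes, all from lists picked for change on these arrays, 1 was called with normexp and 1 with no detection filter. With the scan and replicate block together limma called 0 of them, as did the adjusted paired t-test, and all 4 were called when leaving out replicates or arrays. The cause was not tested. Dim signal over background limits the Ccdc150 probe most, and each probe had 1 spot per array.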
